A study of Mus musculus with 6 samples.

Results

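Genes of the cell division cycle were examined in primary mouse osteoblasts on arrays: 44 genes chosen by name for what they are known to do, 18 that act in DNA replication and 26 that act in mitosis. Earlier results of these data were known when they were chosen. All 44 were found among the 20655 genes that could be named on the array, on 56 probes. After a filter on dim signal 40 of them were tested, 17 replication and 23 mitosis genes. The remaining 4 members, Ccne2, Ttk, Ndc80 and Kif11, were well above background on 1 array only, undifferentiated replicate 2, and have values but no test.

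The cells were calvarial osteoblasts, the bone-forming cells of the skull vault, taken from CD1 mice at 2 to 5 days after birth. Total RNA labeled with Cy3 was measured on 6 one-color arrays, 2 for each of 3 conditions. Undifferentiated osteoblasts were grown to confluence in minimal essential medium with fetal bovine serum. Differentiated osteoblasts were confluent cells that then spent 30 days in differentiation medium, and the third condition was the same 30 days with cabozantinib (XL184), an inhibitor of the MET and VEGF receptor kinases, in that medium. No transgene was used, every condition had the same strain and source, and the labels name no separate cultures or animals for the arrays of a condition, so p-values measure only the spread between these arrays, which may be technical. The questions were how the division genes differ between confluent cells and cells 30 days into differentiation, and whether cabozantinib moves them in differentiated cells.

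Levels are the log2 of the processed signal minus the 75th percentile of the same array, so a value of 0 is the brightness that 1 in 4 probes exceeds, and levels of different probes are not comparable. Between 58.8% and 72.9% of spots were well above background, most in undifferentiated replicate 2, where all 44 members were measurable, against 35 to 39 members on the other arrays. In the scanner headers the 4 arrays without cabozantinib share 1 scan date entry and both cabozantinib arrays share another. Cabozantinib and scan therefore cannot be told apart, and the slide was not read directly. Among the osteoblast markers, 8 of the 9 listed were on the array, all of them measurable in some of the samples. Their summed signal was 573 and 270 times the 75th percentile in undifferentiated, 398 and 590 in differentiated and 498 and 591 in cabozantinib arrays. That sum is mostly Col1a1 (log2 difference 0.24, differentiated minus undifferentiated) and Col1a2 (0.26). In the same order the difference was 5.06 for Bglap2, 2.20 for Ibsp and -3.67 for Spp1, each without overlap of the arrays. It was -1.85 for Sp7 and 0.50 for Alpl. Runx2, not well above background on either differentiated array, was at least 1.97-fold lower there.

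Replication genes are switched on in late G1 by E2F factors. The MCM helicase is loaded on origins with the help of Cdc6 and Cdt1, it is activated with Cdc45 and the GINS complex, and ribonucleotide reductase and thymidylate synthase supply the nucleotides. Mitosis genes are switched on later, in G2, when Foxm1, B-Myb and the MuvB complex act on promoters that carry a CHR element, and their products condense chromosomes, build the spindle and let the chromatids part. In resting and differentiated cells the DREAM complex, which also contains MuvB, holds many genes of both sets down, and osteoblasts are known to leave the cycle as they mature.

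The promoter windows below were taken from the RefSeq table of mouse assembly GRCm38.p6, each from 250 bases before to 50 bases after the transcription start, and are written 5′ to 3′ on the strand of the gene. Shown are 4 mitosis genes whose level was lower in differentiated cells (Top2a, Ube2c, Cenpa and Plk1), Rrm2, the replication gene called lower, and Mcm5, a subunit of the helicase, as an E2F-type promoter. Capitals mark the matches to the motifs searched on both strands: the CHR (TTTGAA), the CCAAT box (CCAAT) and the E2F site (TTTCCCGC, TTTGGCGC, TTTCGCGC or TTTGCCGC).
Top2a: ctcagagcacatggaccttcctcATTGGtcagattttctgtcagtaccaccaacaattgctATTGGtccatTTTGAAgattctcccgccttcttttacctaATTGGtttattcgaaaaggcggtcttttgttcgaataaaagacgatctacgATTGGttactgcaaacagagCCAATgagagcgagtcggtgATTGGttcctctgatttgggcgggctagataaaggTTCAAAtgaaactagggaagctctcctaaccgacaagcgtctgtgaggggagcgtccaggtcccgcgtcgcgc
Ube2c: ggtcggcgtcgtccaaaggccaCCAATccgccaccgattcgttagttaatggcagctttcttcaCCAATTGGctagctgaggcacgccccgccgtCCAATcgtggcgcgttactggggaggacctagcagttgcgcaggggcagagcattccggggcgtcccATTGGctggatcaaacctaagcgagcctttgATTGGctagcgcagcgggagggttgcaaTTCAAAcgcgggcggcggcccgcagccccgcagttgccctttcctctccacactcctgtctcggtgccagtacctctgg
Cenpa: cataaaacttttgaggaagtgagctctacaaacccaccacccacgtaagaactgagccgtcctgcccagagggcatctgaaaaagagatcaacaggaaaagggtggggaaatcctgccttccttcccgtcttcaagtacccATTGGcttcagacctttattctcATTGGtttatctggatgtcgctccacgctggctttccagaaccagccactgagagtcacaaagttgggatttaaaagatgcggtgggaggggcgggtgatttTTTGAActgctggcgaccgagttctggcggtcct
Plk1: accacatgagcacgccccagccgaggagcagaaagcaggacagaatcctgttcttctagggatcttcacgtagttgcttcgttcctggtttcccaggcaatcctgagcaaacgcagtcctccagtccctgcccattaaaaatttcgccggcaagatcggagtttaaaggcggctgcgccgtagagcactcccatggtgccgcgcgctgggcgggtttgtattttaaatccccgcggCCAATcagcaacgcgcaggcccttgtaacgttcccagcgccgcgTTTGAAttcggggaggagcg
Rrm2: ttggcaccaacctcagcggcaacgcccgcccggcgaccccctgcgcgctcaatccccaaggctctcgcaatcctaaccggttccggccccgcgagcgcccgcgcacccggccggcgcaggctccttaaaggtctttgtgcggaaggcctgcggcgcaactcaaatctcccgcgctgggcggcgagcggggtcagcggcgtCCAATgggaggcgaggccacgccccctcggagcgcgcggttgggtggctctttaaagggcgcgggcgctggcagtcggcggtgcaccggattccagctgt
Mcm5: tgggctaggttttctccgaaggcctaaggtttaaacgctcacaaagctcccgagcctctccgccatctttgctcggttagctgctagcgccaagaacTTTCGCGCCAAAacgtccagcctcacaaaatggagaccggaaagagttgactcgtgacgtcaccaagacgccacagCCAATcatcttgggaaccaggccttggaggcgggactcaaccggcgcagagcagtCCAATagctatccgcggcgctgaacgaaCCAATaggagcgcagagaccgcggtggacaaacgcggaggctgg
These windows lie at chr11:99024140-99024439 (minus strand), chr2:164769679-164769978, chr5:30666636-30666935, chr7:122159185-122159484, chr12:24708004-24708303 and chr8:75109259-75109558 (plus strand).

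In the Top2a window a CHR begins 23 bases before the start, with 6 CCAAT boxes upstream of it. The Ube2c window has the same order, with its CHR 29 bases before the start and 6 CCAAT matches, of which a pair overlap in CCAATTGG. Cenpa and Plk1 carry the CHR just downstream, 16 and 30 bases after the first transcribed base. The Rrm2 window holds a single CCAAT box and neither of the other motifs. In Mcm5 a pair of E2F matches overlap in TTTCGCGCCAAA, 153 and 149 bases before the start, beside 3 CCAAT boxes.

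A window was found for 21 mitosis and 15 replication members (none was found for Ccna2, Aurkb, Foxm1, Kif20a, Tpx2, Mcm4, Gins1 and Ccne2). The CHR was present in 16 of the 21 mitosis genes (76.2%) and 2 of the 15 replication genes (13.3%), against 20.2% of the 27025 genes in the table. Within 50 bases of the start it was present in 15 mitosis genes and 1 replication gene, against 5.72% of all genes. E2F sites ran the other way, with 6 replication genes (40%) and 1 mitosis gene (4.76%), against 2.6% of all genes. CCAAT boxes were frequent in both classes, in 18 mitosis genes (85.7%) and 9 replication genes (60%), and in 41.1% of all genes. CHR and CCAAT box stood together in 71.4% of the mitosis genes and in 7.97% of all genes, and in each of the 7 mitosis genes called lower in differentiated cells. These are matches of letters, not sites shown to be bound.

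**Figure D1:**
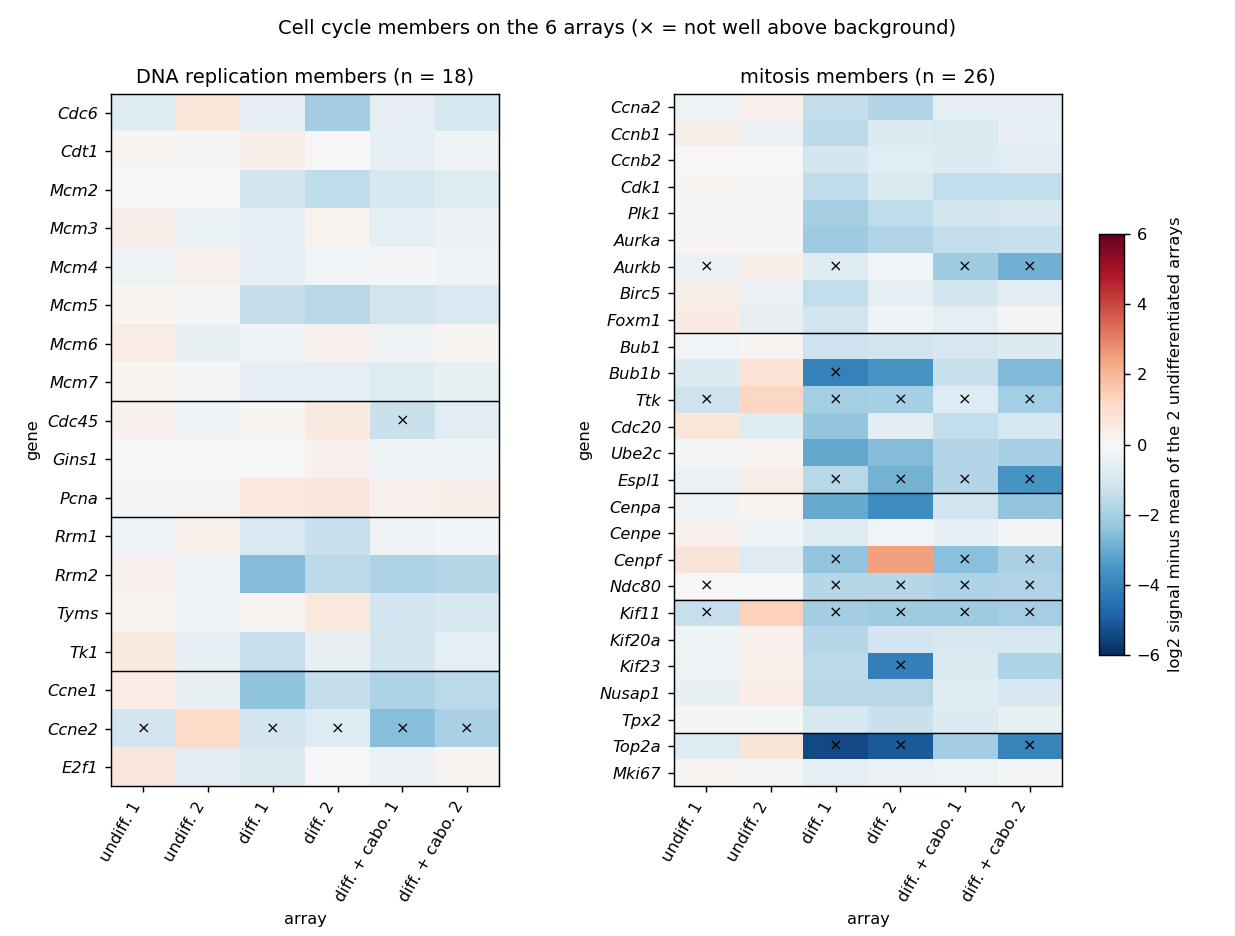
Heat map of all 44 members (rows, grouped by role between black lines) on the 6 arrays (columns), colored by log2 signal minus the mean of the 2 undifferentiated arrays of the same probe; a cross marks a signal not well above background. The mitosis panel is mostly blue in the differentiated columns and paler in the cabozantinib columns, while the Mcm3, Mcm4 and Mcm6 rows of the replication panel stay near white.

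Between confluent undifferentiated and 30-day differentiated osteoblasts, the members called were 7 mitosis genes and 1 replication gene, all lower in differentiated cells. This was in the fit with the replicate number as a term, and genes of both classes were added without it, as given at the end. Of the 40 members tested, 8 were lower in differentiated cells at an adjusted p under 0.05 (limma with Benjamini-Hochberg adjustment over all probes), where 4.44% of all genes tested were called lower. These were 7 of 23 mitosis genes (Top2a, Bub1b, Cenpa, Kif23, Ube2c, Aurka and Plk1) and 1 of 17 replication genes (Rrm2). No member was called higher, where 5.26% of all genes were, and none was more than 2-fold higher at an unadjusted p under 0.05. At that looser threshold 18 members were lower, 14 mitosis and 4 replication genes, against 9.78% of all genes. The median log2 difference was -1.42 over the mitosis genes tested, with 22 of 23 below 0, and -0.44 over the replication genes, with 11 of 17 below 0. The median over all genes tested was 0.11. RNA from a whole culture does not tell fewer dividing cells from less RNA in each of them.

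Since a gene could pass the filter through undifferentiated arrays alone, the fit was repeated over probes measured on all 6 arrays, which hold 33 members. It called 6 of them lower (Cenpa, Ube2c, Aurka, Plk1, Rrm2 and Ccne1). The count of called members was 8 under quantile normalization and 1 (Ube2c) after normexp background correction, by the same limma fit. It was 3 without undifferentiated replicate 2, and 5 when either differentiated array was left out, and when that array was replicate 1 the 5 included Cenpf, called higher.

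All 44 members, with no filter, can also be described by whether the arrays of the conditions overlapped. In 27 members both differentiated arrays lay below both undifferentiated arrays, 21 of 26 mitosis genes and 6 of 18 replication genes, where 17.8% of all genes did. In 1 member, Pcna, they lay above, where 20.5% of all genes did. Among members well above background on all 6 arrays there were 14 of 17 mitosis and 6 of 16 replication genes below, against 20.2% of all genes so measured.

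Top2a, the topoisomerase that untangles sister chromatids, read -2.47 and -0.88 in the undifferentiated arrays, -7.11 and -6.73 in the differentiated arrays and -3.75 and -5.70 in the cabozantinib arrays. Both differentiated values and 1 cabozantinib value (replicate 2) were not well above background, and no differentiated value came near an undifferentiated one. Against the detection limit of the differentiated arrays Top2a fell at least 18.8-fold (adjusted p = 0.0026, limma).

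Within the checkpoint and anaphase group, all 5 genes tested had a difference below 0. Their median of -2.25 is the fitted value of Espl1, which neither differentiated array measured. Over the 3 genes measured on all 6 arrays the median was -1.49. Bub1b encodes BubR1, a spindle checkpoint protein, and its probe read -2.46 and -0.81 in undifferentiated, -5.67 and -5.19 in differentiated and -2.95 and -4.28 in cabozantinib-treated cells. The conditions did not overlap, and differentiated replicate 1 was not well above background. Bub1b fell by 3.80 ± 0.68 on the log2 scale (SE, n = 2 arrays per condition, adjusted p = 0.00704, limma). Ube2c, the ubiquitin-conjugating enzyme of the anaphase-promoting complex, read 0.42 and 0.66, then -2.53 and -2.04, then -1.20 and -1.44 in the same order of conditions. Replicates lay far closer to each other than the undifferentiated arrays lay to those of either other condition. Ube2c was 7.11-fold lower in differentiated than in undifferentiated cells (log2 difference -2.83 ± 0.49, adjusted p = 0.00623, limma). Espl1, or separase, the protease that cuts cohesin, read -4.29 and -3.63 in the undifferentiated arrays and was not well above background on any of the other 4 arrays. It was at least 3.84-fold lower in differentiated cells (adjusted p = 0.0529, limma), and it passed the filter only through the undifferentiated arrays, where it was high. Cdc20 (-1.49) and Bub1 (-1.21) did not pass, and Ttk, the MPS1 kinase, was measured in undifferentiated replicate 2 alone, at -4.29.

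Among kinetochore genes Cenpa, the histone H3 variant of centromeres, read -0.98 and -0.53 in undifferentiated, -3.76 and -4.50 in differentiated and -1.93 and -3.10 in cabozantinib-treated cells. All 6 values were well above background and the conditions did not overlap, with a 10.4-fold lower level in differentiated cells (log2 difference -3.37 ± 0.55, adjusted p = 0.00452, limma). The larger kinetochore proteins did not share this. Cenpe, a kinesin, read 2.10 and 1.54 against 1.04 and 1.67, so the conditions overlapped. Cenpf read -4.48 and -5.98 against -7.61 and -2.75, with its highest and nearly its lowest value in the 2 differentiated arrays, and its fitted difference of 0.05 ± 1.15 became -2.62 without differentiated replicate 2 and -2.05 without undifferentiated replicate 2. Ndc80 was at or near background throughout, from -7.76 to -5.88.

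Of the spindle and midzone genes Kif23, a kinesin of the central spindle needed for cytokinesis, was called. Its values were -1.91 and -1.28, then -3.19 and -5.67, then -2.48 and -3.43, with the second differentiated array not well above background and far below its partner. The difference was -2.84 ± 0.69 (adjusted p = 0.0295, limma). The spindle assembly factors Nusap1 (-1.67) and Tpx2 (-1.13) and the kinesin Kif20a (-1.42) did not pass the adjusted threshold, although both differentiated arrays lay below both undifferentiated ones in each. Kif11, the motor that separates spindle poles, was well above background in undifferentiated replicate 2 alone (-4.25).

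Of the 9 mitotic kinases, cyclins and Foxm1, Aurka and Plk1 were called. Aurka, the centrosomal Aurora kinase, read 1.95 and 1.68 in undifferentiated, -0.32 and 0.00 in differentiated and 0.37 and 0.49 in cabozantinib-treated cells, a difference of -1.97 ± 0.49 between the first conditions (adjusted p = 0.0313, limma). Plk1, the Polo kinase, read 1.36 and 1.51, then -0.56 and -0.08, then 0.32 and 0.50, a difference of -1.76 ± 0.48 (adjusted p = 0.0490, limma). In both kinases no values overlapped between conditions. All 9 genes of the group had differences below 0, from -0.45 for Aurkb to -1.97 for Aurka, with a median of -1.19. Cdk1, the kinase of mitotic entry, was at -1.19, its partners Ccna2, Ccnb1 and Ccnb2 at -1.61, -1.20 and -0.89, Birc5 (survivin) at -1.02 and Foxm1 at -0.71, none below the adjusted threshold. Aurkb, the Aurora kinase of the chromosomal passenger complex, was near background, at -5.11 and -4.41 against -5.49 and -4.92. Mki67, the Ki-67 proliferation antigen, read 2.75 and 2.52 against 2.12 and 2.24, a difference of -0.45 ± 0.49 that did not pass.

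**Figure D2:**
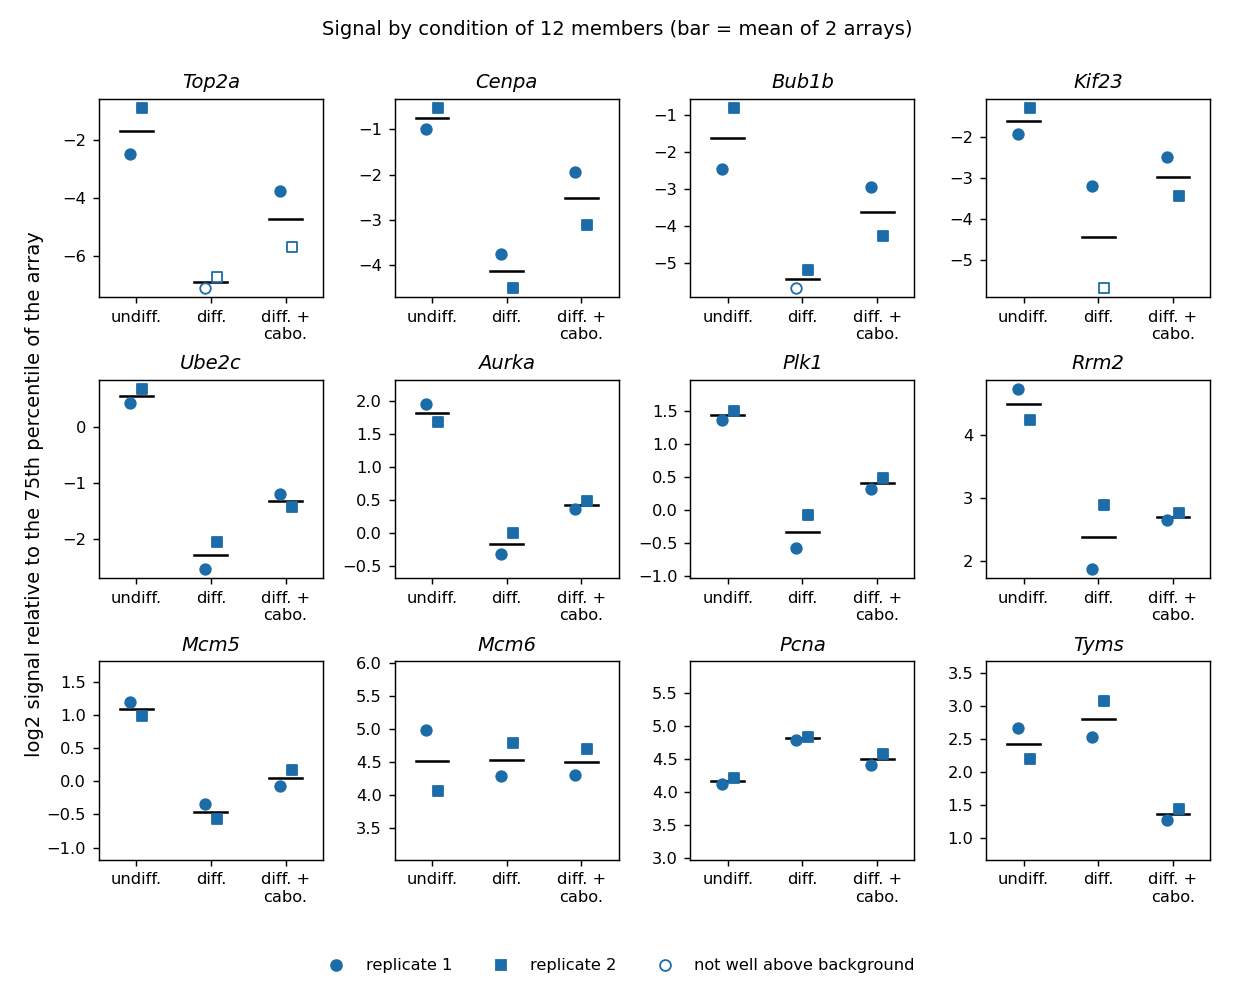
Log2 signal relative to the 75th percentile of the array for 12 members in the 3 conditions; circles and squares are replicates 1 and 2, bars are the mean of the 2 arrays, open symbols were not well above background, and every panel has its own vertical range of at least 3 units. The first 8 panels are the members called lower in differentiated cells, and Mcm5, Mcm6, Pcna and Tyms show the range of the other replication genes.

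Among the replication genes 1 of 17 tested was called in the fit with the replicate number as a term. Rrm2, the regulated subunit of ribonucleotide reductase, read 4.72 and 4.24 in undifferentiated, 1.87 and 2.89 in differentiated and 2.65 and 2.76 in cabozantinib-treated cells. It was 4.28-fold lower in differentiated cells (log2 difference -2.10 ± 0.54, adjusted p = 0.0363, limma), with no overlap of the values. Its partner subunit Rrm1 read 2.63 and 3.22 against 2.01 and 1.60 (-1.12, not passing). Tyms, thymidylate synthase, read 2.66 and 2.20 against 2.53 and 3.08, and the conditions overlapped. Tk1, thymidine kinase, read 3.58 and 2.48 against 1.63 and 2.59, a wide spread in both conditions.

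All 8 licensing genes were tested and none was called, and the MCM subunits did not share 1 pattern. Mcm5 read 1.21 and 0.99 against -0.34 and -0.57 (-1.56 ± 0.49, adjusted p = 0.0804, limma) and Mcm2 read 1.09 and 1.12 against 0.02 and -0.40 (-1.29, adjusted p = 0.155). In both genes the conditions were apart by more than the replicates. Mcm6 read 4.99 and 4.06 against 4.29 and 4.79, a difference of 0.01 ± 0.54, and Mcm3, Mcm4 and Mcm7 were at -0.14, -0.35 and -0.53. The licensing factor Cdc6 read -2.78 and -1.33 against -2.59 and -4.16 and overlapped, and Cdt1 was at 0.21.

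The fork genes were the one replication group with no difference below 0: Pcna, the sliding clamp, Cdc45 and Gins1 were at 0.64, 0.34 and 0.13, none passing the test. Pcna read 4.12 and 4.21 in undifferentiated and 4.79 and 4.83 in differentiated cells, close within each condition (0.64 ± 0.48, adjusted p = 0.564, limma). For entry into S phase, Ccne1, cyclin E1, read 3.96 and 3.04 against 1.09 and 2.09 (-1.91 ± 0.57, adjusted p = 0.0675, limma), without overlap. Its paralog Ccne2 was well above background on 1 array, at -4.00, and the activator E2f1 read 1.66 and 0.28 against 0.12 and 0.94.

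**Figure D3:**
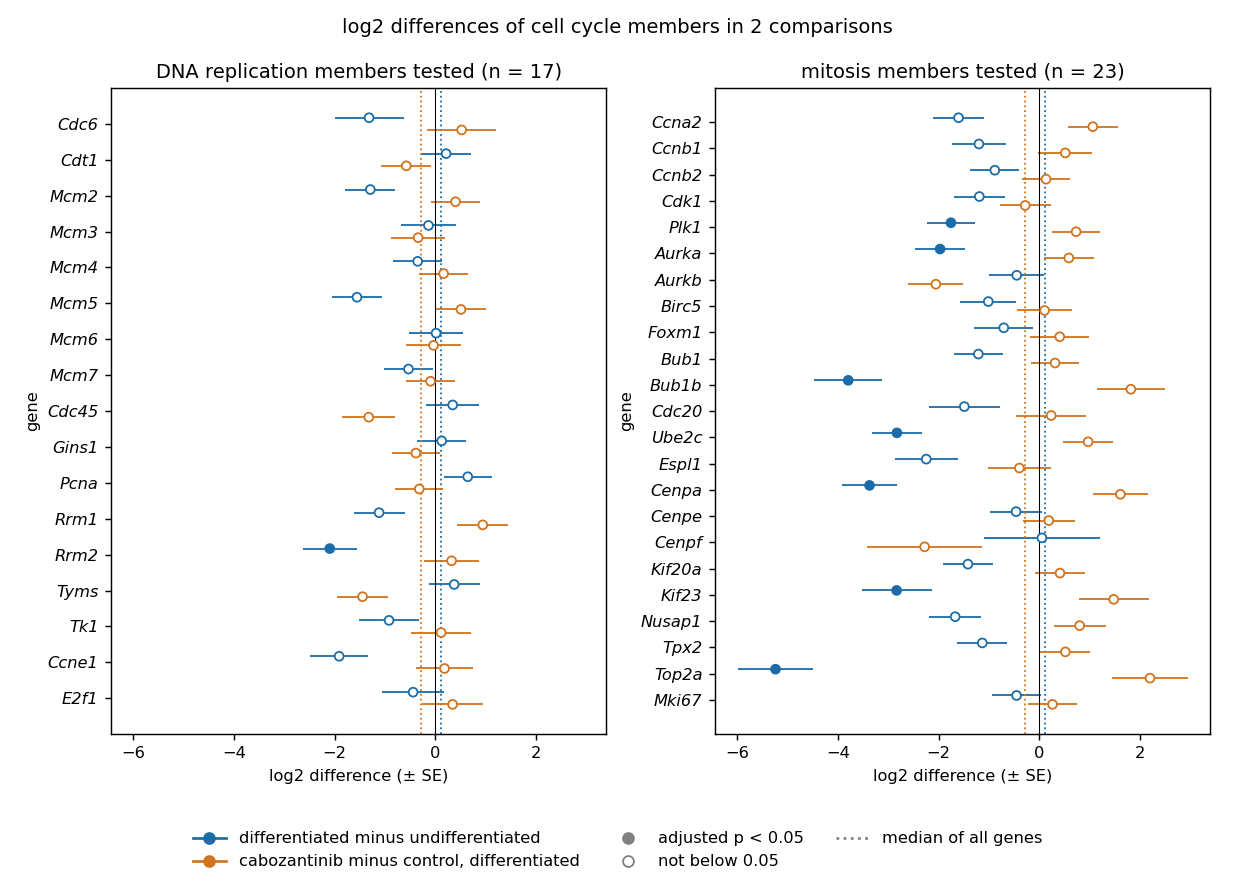
Log2 differences with their SE for the 40 members tested, differentiated minus undifferentiated in blue and cabozantinib minus control in orange; filled points have an adjusted p under 0.05 and dotted lines are the medians of all genes, 0.11 and -0.29. Filled points are 7 mitosis genes and Rrm2, all blue, and no orange point is filled.

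Markers of other cell types moved between the same arrays. The macrophage list had 6 of 7 genes on the array, 5 or 6 of them above background in each sample. Its summed signal was 44.03 and 22.7 in undifferentiated, 196 and 297 in differentiated and 174 and 217 in cabozantinib-treated cultures. Most of that sum is Csf1r and Adgre1, called higher in differentiated than in undifferentiated cells (2.84 and 4.04, adjusted p = 0.0183 and 0.00126, limma). Ptprc (1.61), Itgam (1.48) and Cd14 (1.30) did not pass, and Lyz2 went the other way (-1.28, not passing). The adipocyte list (4 genes) went from 1.98 and 1.49 to 22.9 and 48.4, and stood at 8.13 and 7.97 with cabozantinib. Nearly all of that sum is Fabp4, a fatty acid binding protein (log2 difference 4.38, differentiated minus undifferentiated). Adipoq, not well above background on either undifferentiated array, was at least 10.8-fold higher in differentiated cells (adjusted p = 0.00216, limma). Cidec (0.33) and Plin1 (-1.52) did not pass the test. The osteoclast list (5 genes, Calcr not above background on any array) was at 55.5 and 34.4, then 123 and 180, then 111 and 138. It is mostly Ctsk (1.49, differentiated minus undifferentiated, not passing) and Acp5 (3.34, adjusted p = 0.00489, limma), while Oscar (0.02) and Ocstamp (-0.19) did not pass. The muscle list (4 genes) was highest in undifferentiated cells, 4.59 and 4.35 against 0.887 and 1.11, and 3.10 and 2.44 with cabozantinib. This sum follows the actin gene Acta1 (-2.58), while Myog (-0.03), Myod1 (0.19) and Myh3 (-0.08) did not pass. Chondrocyte sums overlapped between all conditions, and they follow Col2a1 (0.11, differentiated minus undifferentiated). In the same comparison Matn1 (4.78, adjusted p = 0.00203, limma) and Col9a1 (2.34, adjusted p = 0.0157, limma) were called higher, while Acan (-0.66) did not pass. Endothelial sums were 1.29 and 0.7997 in undifferentiated, 1.08 and 1.45 in differentiated and 0.730 and 0.868 in cabozantinib-treated cells. Both cabozantinib arrays lay below both controls, and this sum follows Kdr (-0.73, cabozantinib minus control, not passing). Cdh5, the endothelial cadherin, was called lower with cabozantinib (-2.40, adjusted p = 0.0474, limma). Esam (-0.56) did not pass, Pecam1 went the other way (0.61, not passing), and Tek was not above background on any array. The part of these other cells in the cell cycle differences was not tested.

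In differentiated osteoblasts no member passed the adjusted threshold with cabozantinib in the fit with the replicate number as a term. Of 40 tested, 0 were called in either direction (limma), where 2.55% of all genes were called lower and 0.121% higher. At an unadjusted p under 0.05 and over 2-fold, 3 members were higher (Top2a, Bub1b and Cenpa, all mitosis genes, where 2.71% of all genes were) and 3 were lower (Aurkb, Cdc45 and Tyms, where 20.7% of all genes were), and these 6 are all the members with an unadjusted p under 0.05. Aurkb is counted there by its fitted difference, although no cabozantinib array measured it. With the 4 compared arrays fitted alone 5 members were called, 2 higher (Cenpa and Ccna2, where 2.81% of all genes were) and the same 3 lower (where 21.2% were). Leaving out either undifferentiated array, which is not part of the comparison, also gave 5.

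The whole array was shifted downward in this comparison under the 75th percentile scaling, with a median gene at -0.29, and at -0.08 under quantile normalization. Against that, the mitosis genes had a median log2 difference of 0.41, 19 of 23 above 0 and 20 of 23 above the median gene, where 32.1% of all genes were above 0. The median was 0.41 under quantile normalization as well. Replication genes had a median of 0.11, with 9 of 17 above 0, and this value changed sign with the choice of probe and with left-out arrays. Quantile normalization and normexp correction called no gene at all in either direction in this comparison, members included.

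Both cabozantinib arrays lay above both control arrays in 15 of all 44 members, 12 of 26 mitosis genes (Aurka, Bub1, Bub1b, Ccna2, Cenpa, Kif20a, Mki67, Nusap1, Plk1, Top2a, Tpx2 and Ube2c) and 3 of 18 replication genes (Mcm2, Mcm5 and Rrm1), where 13.1% of all genes did. Among members measured on all 6 arrays they lay above in 10 of 17 mitosis and 3 of 16 replication genes, against 14.6% of all genes so measured. They lay below in 8 of all 44 members, 6 replication genes (Ccne2, Cdc45, Cdt1, Gins1, Pcna and Tyms) and 2 mitosis genes (Aurkb and Ndc80), where 43.7% of all genes did. Of these, Ccne2 and Ndc80 were not well above background on any of the arrays compared.

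Among members measured in both conditions the 3 differences furthest above 0 belonged to mitosis genes. Bub1b was at 1.82 ± 0.68 (adjusted p = 0.144, limma), Cenpa at 1.61 ± 0.55 (adjusted p = 0.118) and Kif23 at 1.48 ± 0.69 (adjusted p = 0.241). Top2a was measured on 1 cabozantinib array and on neither control array. The mean of both cabozantinib arrays, which includes the array not well above background, lay 2.28-fold above the detection limit of the control arrays. Its fitted difference was 2.20 (adjusted p = 0.117, limma). In Top2a, Bub1b and Cenpa the cabozantinib arrays lay between the other conditions without overlap, replicate 1 nearer to the undifferentiated level and replicate 2 nearer to the differentiated one. Their differences between differentiated and undifferentiated cells, which share the differentiated arrays with this comparison, were -3.80 and -3.37 for Bub1b and Cenpa, with Top2a at its bound. Ube2c was 0.97 higher, Aurka 0.59 and Plk1 0.73, each without overlap. For Plk1 the differentiated replicates (-0.56 and -0.08) lay further apart than the nearest arrays of the 2 conditions (-0.08 and 0.32). Cdk1 (-0.28), Birc5 (0.10), Ccnb2 (0.13) and Cenpe (0.19) were the lowest of the well-measured mitosis genes, and in each the arrays of the conditions overlapped.

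Tyms was the lowest replication gene. It read 2.53 and 3.08 in differentiated cells and 1.27 and 1.45 with cabozantinib, below the undifferentiated values of 2.66 and 2.20 too. The log2 difference was -1.45 ± 0.51 (adjusted p = 0.123, limma). Cdc45 read -4.08 and -3.62 against -5.54 and -4.81, the first of these not well above background (-1.32 ± 0.53, adjusted p = 0.166), and under quantile normalization its difference was -0.56. Cdt1 read 2.34 and 1.93 against 1.41 and 1.71, and Gins1 -0.07 and 0.23 against -0.32 and -0.30, both small. Rrm1 was the highest of the class, at 2.01 and 1.60 against 2.72 and 2.78 (0.94 ± 0.51, adjusted p = 0.315), which placed it within the range of the undifferentiated arrays, while Rrm2 (0.32), Ccne1 (0.18) and Mcm6 (-0.04) differed by less than their SE.

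For Aurkb and Cenpf neither cabozantinib array was well above background. Aurkb read -5.49 and -4.92 in differentiated and -6.88 and -7.65 in cabozantinib-treated cells (adjusted p = 0.0652 for the fitted difference, limma). By the mean of the differentiated arrays it was at least 1.20-fold lower, although replicate 1 of these was not well above background. Cenpf read -7.61 and -2.75 in differentiated and -7.73 and -7.19 in cabozantinib-treated cells. These arrays overlapped, so no bound is given (adjusted p = 0.277 for the fitted difference, limma). Its level in the untreated cells rests on 1 array.

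**Figure D4:**
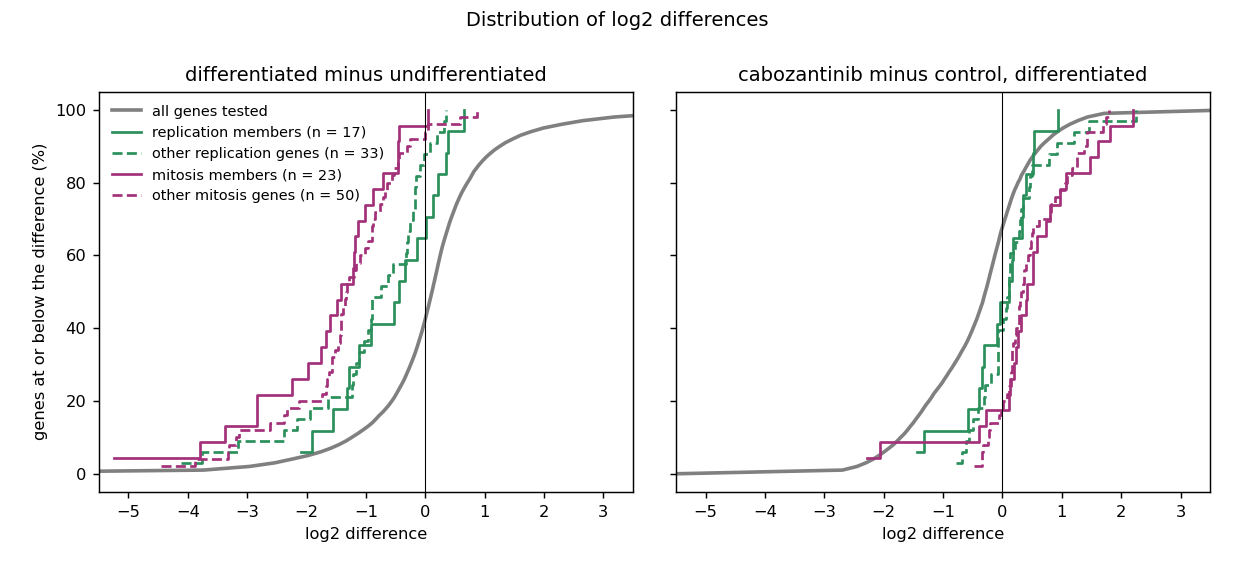
Cumulative share of genes (percent) at or below each log2 difference, for differentiated minus undifferentiated (left) and cabozantinib minus control in differentiated cells (right); gray is all 23086 genes tested, solid lines are the 17 replication and 23 mitosis members and dashed lines the 33 and 50 other genes of the same pathways. On the left the mitosis curves lie furthest to the left of gray, and on the right both mitosis curves lie to the right of it.

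Between cabozantinib-treated differentiated and undifferentiated cells, the share of members called was near that of all genes. Of 40 members 4 were called lower, all mitosis genes, where 8.71% of all genes were called lower, and none was called higher, where 4.68% were. At over 2-fold and an unadjusted p under 0.05, 10 members were lower (23.4% of all genes) and 0 higher (8.12%). The 4 called were Top2a (fitted log2 difference -3.05, adjusted p = 0.0293, limma, measured on 1 of the 2 cabozantinib arrays), Espl1 (at least 2.86-fold, adjusted p = 0.0262), Aurkb (at least 1.65-fold, adjusted p = 0.0194) and Ube2c (3.64-fold, adjusted p = 0.0373). Aurkb was well above background on only 1 of the 2 undifferentiated arrays whose mean enters its bound. Espl1 passed the filter only through the undifferentiated arrays, and over probes measured on all 6 arrays 1 member, Ube2c, was called. The medians were -1.03 for mitosis and -0.63 for replication genes, and -0.35 for all genes. Under quantile normalization, normexp correction and the authors' own values 0 members were called, and the calls over all genes went from 2011 lower and 1080 higher to 367 lower and 949 higher under quantile normalization. The count was 2 without undifferentiated replicate 1, 12 without undifferentiated replicate 2 and 0 without cabozantinib replicate 2.

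Without a filter, both cabozantinib arrays lay below both undifferentiated arrays in 32 of 44 members, 22 of 26 mitosis and 10 of 18 replication genes, where 39.6% of all genes did. Pcna alone lay above, where 14.9% did. For the genes called in the first comparison, the differences from undifferentiated cells were -1.98 for Bub1b, -1.77 for Cenpa, -1.36 for Kif23, -1.39 for Aurka, -1.03 for Plk1 and -1.78 for Rrm2, none below the adjusted threshold, the lowest adjusted p being 0.0557 for Rrm2. Ccne1 (-1.73), Tyms (-1.07) and Mcm5 (-1.05) were the next lowest replication genes. Mcm6 (-0.02), Pcna (0.32), Cenpe (-0.28) and Mki67 (-0.19) differed by less than their SE.

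The other genes of the pathways, 36 of replication and 56 of mitosis, were read the same way, with 33 and 50 tested. In differentiated against undifferentiated cells 5 replication genes (Chaf1a, Clspn, Gins3, Orc1 and Rfc3) and 10 mitosis genes (Cenph, Cenpn, Ckap2, Dlgap5, Gtse1, Hmmr, Kif4, Kifc1, Nek2 and Nuf2) were called lower, where 4.44% of all genes were, and none was called higher, where 5.26% were (limma). Rfc3 and Dlgap5 passed the filter only through the undifferentiated arrays, and over probes measured on all 6 arrays 11 of 75 were called. Their medians were -0.74 and -1.33. Chaf1a, the large subunit of the histone chaperone CAF-1, read -1.54 and -1.81 in undifferentiated and -5.98 and -5.59 in differentiated cells and was at least 15.4-fold lower (adjusted p = 0.00117). Ckap2, a microtubule-associated protein, read -0.64 and 0.39 against -3.37 and -3.53 (-3.32 ± 0.59, adjusted p = 0.00674), and the centrosomal kinase Nek2 read -1.67 and -1.19 against -4.03 and -5.20 (-3.18 ± 0.56, adjusted p = 0.00619). Dbf4, the activator of the Cdc7 kinase, had a similar difference of -3.15 with a wide error (SE 0.95, adjusted p = 0.0698). At the upper end Cep55 (0.87), Smc4 (0.58) and Pola1 (0.34) did not pass.

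With cabozantinib 1 of these genes was called, Chaf1a, which read -3.49 and -3.57 and was at least 4.27-fold higher than in untreated differentiated cells (adjusted p = 0.0491, limma), where 0.121% of all genes were called higher. It was not called under quantile normalization, normexp correction or the authors' own values. The other mitosis genes had a median of 0.33 with 41 of 50 above 0, and the other replication genes 0.10 with 20 of 33, where 32.1% of all genes were above 0. Nek2 (1.43), Dbf4 (1.45) and Ckap2 (1.79) were the highest of those well measured, and Gmnn (-0.78), E2f2 (-0.68) and Dut (-0.62) the lowest, none of them passing.

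Several members have more than 1 probe, and the probes did not always move alike. For Birc5 the brightest probe differed by -1.02 between differentiated and undifferentiated cells, while a dimmer probe differed by -1.86. Another read -1.98 and -1.47 in undifferentiated and -6.22 and -6.02 in differentiated cells, and was not well above background on either differentiated array. For Ccnb1 the values were -1.20 on the brightest probe and -3.20 on a second, and for Mki67 -0.45 on the brightest and -1.32 on the other, both measured on all 6 arrays. The second Ube2c probe read -0.75 and 0.02, then -4.16 and -3.62, then -2.18 and -3.07, close to the pattern of the first. The second Ccne1 probe went the opposite way from the first, at 1.20 against -1.91, and was measured on 4 arrays. With cabozantinib the second Mki67 probe was 1.03 higher against 0.26 on the first, and the second Cdk1 probe 1.76 lower against 0.28 lower on the first.

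**Figure D5:**
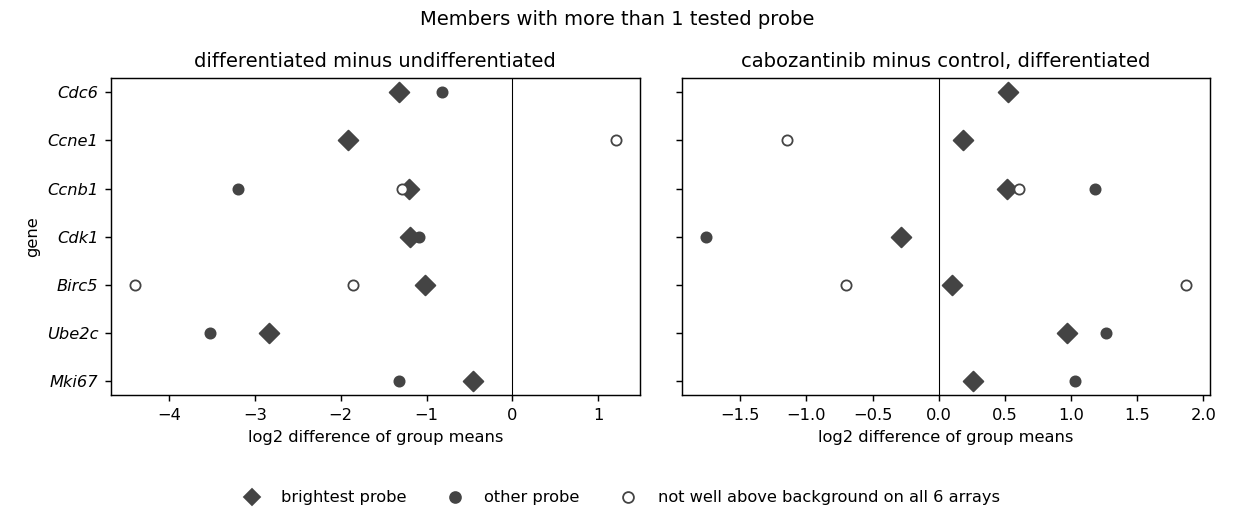
Log2 difference of group means for each tested probe of the 7 members with more than 1, differentiated minus undifferentiated (left) and cabozantinib minus control (right); diamonds are the brightest probe, which represents the gene in the text, circles are other probes, and open symbols were not well above background on all 6 arrays. In the left panel Birc5, Ccnb1 and Ccne1 have probes over 1 log2 unit apart.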

How the data were processed

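Osteoblast RNA was measured on Agilent Whole Mouse Genome arrays. The deposited scanner files, made with Feature Extraction 11.0.1.1, give each spot a background-corrected intensity (processed signal) and flags for background. The authors' table of processed log2 values correlated with log2 scanner intensity at 0.998 or more on every array. Its column medians are 7.50 to 7.51, its centering and scale are not given in the sources used here, and it served as an alternative.

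Control and outlier spots were dropped, spots of a probe were averaged as log2 intensity, and arrays were scaled to their 75th percentile. The test took the 27236 probes whose signal stood well above background in 2 or more of the 6 samples, on 23086 genes or transcripts without a gene name, each represented by its brightest probe. Probes were named through RefSeq accessions (69.1% of probes matched). limma 3.58.1 in R 4.3.3 was fitted to all 6 arrays with condition and replicate number, since the study names a paired test, with Benjamini-Hochberg adjustment over all probes. The fit had 2 residual and 7.69 prior degrees of freedom, and was tested on simulated data. A gene not well above background on any array of a group is given by a bound, unless the arrays of the groups overlapped. The bound is the bright group's mean against the higher of the detection limit and the dim group's own signal. That mean can include an array not well above background, and a p-value beside a bound is that of the fitted difference. With 2 arrays per condition the number of arrays limits the precision.

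The members and all lists were chosen with earlier results of these data known. The rule for giving array values took members called in any comparison. Within each class it also took the 4 lowest and 2 highest differences in each comparison among members measured in both groups. For some of these, such as Cdk1, Birc5 and Ccnb2, only the difference or the values of some arrays are printed. The files hold no mean signal, so the normexp alternative (offset 50) used the median signal. Other alternatives were quantile normalization, the authors' values, other filters, no replicate block, the 4 arrays compared alone, a trended robust variance, the mean or the dimmest probe of a gene, each array left out, and single-probe tests. Python 3.11.15, pandas 2.3.3 and matplotlib 3.10.9 were used.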

Additional observations from a re-analysis of the deposited data

How the results depend on the processing

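The replicate numbers of the labels did not pair the arrays: the differences between replicates correlated at -0.51 and -0.53 between undifferentiated arrays and the other conditions and at 0.26 between those. Without the replicate block 12 members were called in differentiated against undifferentiated cells, 2 with cabozantinib against control (Aurkb and Tyms) and 9 in cabozantinib-treated against undifferentiated cells, and 23, 2 and 13 of the other cell cycle genes, where 13.4%, 12.8% and 24.1% of all genes were called against 9.71%, 2.67% and 13.4% with it. Mcm2, Mcm5, Ccne1, Ccna2 and Nusap1 in the first and Rrm2, Ccne1, Cdk1, Aurka and Cenpa in the last comparison were then added. Kif23 then missed the threshold (adjusted p = 0.0550, limma). Swapping replicates 1 and 2 of the undifferentiated cells in the replicate block, an alternative chosen after seeing the data, gave calls in 25, 9 and 21 members and 47, 14 and 34 other genes, where 26.1%, 30.6% and 44.6% of all genes were called.

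In differentiated against undifferentiated cells, normexp correction left 1 member and 1 other gene called and no filter on dim probes 4 and 8. The mitosis median was -1.12 with normexp and -1.21 over probes measured on all arrays. The methods' t-test, paired, and an unpaired test on single probes called 0 members and 0 other genes after adjustment in each of the 3 comparisons, and unadjusted p under 0.05 held for 4, 0 and 3 members (paired) and 13, 4 and 12 (unpaired). With 1 array left out at a time 3 to 11 members and 5 to 26 other genes were called (26 without undifferentiated replicate 1, 5 without undifferentiated replicate 2, 9 without differentiated replicate 2), the mitosis median ran from -1.61 to -1.33 and the replication median from -0.71 to 0.01.

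With cabozantinib against control, the 4 arrays alone gave 5 members and 10 other genes. Other genes called were 0 under quantile normalization, normexp, the authors' values, no filter and the all-array filter. With arrays left out, 0 to 5 members (1 without differentiated replicate 1, 1 without cabozantinib replicate 2) and 0 to 10 other genes were called (10 without either undifferentiated array, 0 without any of the other 4). The replication median was 0.19 in the authors' values, -0.036 with the mean or the dimmest probe, and -0.29 to 0.25 with arrays left out.

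In cabozantinib-treated against undifferentiated cells, members and other genes called were 0 and 1 under quantile normalization, 0 and 0 with normexp, 0 and 1 in the authors' values, 0 and 1 with no filter, 1 and 3 with the all-array filter and 7 and 12 with a trended robust variance, and 7 members with the mean probe. Arrays left out gave 0 to 12 members and 0 to 20 other genes (13 and 20 without undifferentiated replicates 1 and 2, 3 and 0 without cabozantinib replicates 1 and 2). The mitosis median was -0.91 with normexp, -1.31 with no filter, -0.90 with the all-array filter, -1.26 with the mean or the dimmest probe and -1.22 to -0.96 with arrays left out.

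Over 645 alternatives for 41 differences of named members, 532 kept direction and side of the threshold, 59 lost the call, 34 gained it and 20 changed sign. Between differentiated and undifferentiated cells Ccne1 turned to 1.20 on its dimmest probe, and with arrays left out Tyms ran from -0.037 to 0.79 and Cenpf from -2.62 to 2.72. With cabozantinib against control, Birc5 was -0.70 on its dimmest probe, and with arrays left out Birc5 ran from -0.43 to 0.64, Cdc6 from -0.50 to 1.54, Cdk1 from -0.68 to 0.11, Ccnb2 from -0.060 to 0.32 and Cenpe from -0.15 to 0.53. In cabozantinib-treated against undifferentiated cells Ccne1 was 0.054 on its dimmest probe, Mcm6 was 0.0014 under quantile normalization, 0.034 with normexp and 0.00035 in the authors' values, and with arrays left out Mcm6 ran from -0.70 to 0.66, Cenpe from -0.82 to 0.27 and Mki67 from -0.41 to 0.018. Normexp was run on the median signal. A left-out array leaves a lone array in its condition, which is assumed to vary like the others. The causes were not tested.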
